A study of Mus musculus with 25 samples.

Results

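The genes described here write, copy, read and remove methyl groups on cytosine in DNA. They are the DNA methyltransferases *Dnmt1*, *Dnmt3a* and *Dnmt3b*, the maintenance partner *Uhrf1*, the dioxygenases *Tet1*, *Tet2* and *Tet3*, the glycosylase *Tdg* and the methyl-CpG reader *Mbd2*. They were chosen by symbol, and all 9 were found among the 52636 genes of the count table. All 9 also passed the filter on low counts that kept 16340 genes for testing.

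RNA came from the *soleus*, a hindlimb muscle, of 25 C57BL/6 mice of 12 weeks, and each mouse gave 1 library. WT mice carried the floxed *Dnmt3a* alleles (*Dnmt3a* flox/flox) and no Cre. The mD3AKO mice carried the same alleles together with mCK-Cre, in which the muscle creatine kinase promoter drives Cre late in muscle differentiation. Satellite cells and non-muscle cells of the tissue may therefore keep an intact gene, which was not tested. At rest there were 5 WT and 7 mD3AKO mice, which had spent 30 minutes in a sham treadmill arena, and 7 WT and 6 mD3AKO mice were killed 60 minutes after the end of a 30-minute treadmill run. Among the 25 mice, 13 were male and 12 female.

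DNMT3A and DNMT3B place methyl groups on unmethylated CpG sites, while DNMT1 copies the pattern onto the new strand after replication, to which UHRF1 brings it by binding hemimethylated DNA. The TET enzymes oxidise 5-methylcytosine, and TDG cuts out the most oxidised forms for replacement by plain cytosine through base excision repair. MBD2 binds methylated CpG and brings the NuRD repressor complex. In a tissue whose fiber nuclei no longer divide, methylation can still be added by de novo enzymes and removed by oxidation, and the response of this machinery to a bout of exercise was the question put to the data.

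The sequences of the catalytic sites show how the enzymes are related. All DNA methyltransferases share a proline-cysteine pair whose cysteine attacks the target cytosine. In mm10, the 91 bases of exon 18 of the 23 exons of the transcript Dnmt3a-201 hold these codons on the forward strand of chr12:3902381-3902471. This exon is shown because the floxed exon codes for this motif, although the study numbers it 19. Its length is 1 base over a multiple of 3. The capitals mark the proline and cysteine codons.
Dnmt3a exon: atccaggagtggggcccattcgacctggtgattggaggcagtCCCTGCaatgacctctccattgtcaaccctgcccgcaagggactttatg

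The next 3 stretches of 66 bases are aligned on the same codons, in capitals, and show how far the 3 methyltransferases match around this motif. *Dnmt3a* and *Dnmt3b* (chr2:153677183-153677248, forward strand) were identical at 55 of 66 bases. *Dnmt1* (chr9:20911783-20911848, reverse strand) matched each of them at 33 of 66.
Dnmt3a: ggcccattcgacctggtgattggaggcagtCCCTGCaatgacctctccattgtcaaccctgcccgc
Dnmt3b: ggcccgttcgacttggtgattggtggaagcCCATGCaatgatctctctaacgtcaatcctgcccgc
Dnmt1: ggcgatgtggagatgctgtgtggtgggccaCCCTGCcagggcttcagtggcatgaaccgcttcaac

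The TET enzymes hold their iron with a histidine and an aspartate that are separated by a single residue. Capitals mark the codons of this pair in 66 bases of each gene, all on the reverse strand: *Tet1* at chr10:62814439-62814504, *Tet2* at chr3:133471343-133471408 and *Tet3* at chr6:83373197-83373262. The pairs of genes were identical at 43 bases (*Tet1* and *Tet2*), 46 bases (*Tet1* and *Tet3*) and 45 bases (*Tet2* and *Tet3*). No pair of the Tet genes was as close as *Dnmt3a* and *Dnmt3b*.
Tet1: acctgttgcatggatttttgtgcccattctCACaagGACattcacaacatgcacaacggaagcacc
Tet2: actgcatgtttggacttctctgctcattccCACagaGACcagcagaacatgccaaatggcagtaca
Tet3: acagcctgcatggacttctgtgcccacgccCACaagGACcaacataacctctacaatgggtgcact

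Despite these likenesses, a member shared at most 1 word of 31 bases with the other members, and near copies outside the list shared more. *Tdg* shared 48.0% of its words with other genes, mostly the pseudogene *Tdg-ps*, on which at most 2 reads were counted in any library. *Uhrf1* shared 24.2% with other genes, mostly *Gm5648* (1 read in all libraries together), and *Dnmt3b* shared 13.5% with *Dnmt3c* (3 reads in all). In the other members the share was at most 1.75%. How reads that fit several genes were treated is not given in the sources used here, so the levels of *Tdg*, *Uhrf1* and *Dnmt3b* are less certain than the others.

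Depth was between 22671457 and 37431801 reads per library on genes (median 32189360), so that 1 CPM (a count scaled by the size of its library) was about 32.2 reads. The 67 pairs of libraries of the same group all differed by more than sampling noise. Mouse 15, a rested male mD3AKO mouse, had the fewest reads, and 39.5% of them lay on 3 ribosomal RNA genes (*mt-Rnr1*, *mt-Rnr2* and *CT010467.1*), against 7.75% to 13.0% in the other libraries. All 12 skeletal muscle fiber markers were detected in every library. Mice are separate animals, and the p-values below measure the spread between mice.

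*Dnmt3a*, the targeted gene, was checked first. In the WT mice at rest it had 93.4, 98.5, 125.5, 128.0 and 129.8 CPM, and after exercise 105.7 to 130.5 CPM (median 120.0). In the mD3AKO mice it had 34.6 to 53.9 CPM (median 42.1) at rest and 34.7 to 43.0 CPM (median 37.3) after exercise. Every WT library lay above every mD3AKO library, and the mean level in mD3AKO muscle was 35.1% of that in WT. Of the 16340 tested genes, 0.049% did not overlap between the genotypes. Reads of *Dnmt3a* were counted over 16642 exon bases, of which the floxed exon makes up 91. Transcripts without this exon would thus still be counted, and their part in the remaining level was not tested. The fall was 1.41 on the log2 scale at rest (SE 0.099) and 1.63 after exercise (SE 0.099), and the difference between these falls was not called (-0.22, SE 0.139, adjusted p = 1.00, edgeR).

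No other member was called for genotype, at rest, after exercise or as a main effect, where edgeR's quasi-likelihood test called 0.0918%, 0.11% and 0.269% of all genes. Their main effects of genotype lay between -0.10 for *Tet1* and 0.20 for *Uhrf1* on the log2 scale. With each mouse left out, they ranged from -0.21 to -0.008 for *Tet1* and from 0.13 to 0.29 for *Uhrf1*. The interval of the difference was narrowest for *Mbd2* among these 8, from -0.03 to 0.15, followed by *Tdg* (-0.07 to 0.19) and *Dnmt1* (-0.17 to 0.09). It was -0.08 to 0.30 for *Tet2*, -0.15 to 0.30 for *Tet3* and -0.29 to 0.32 for *Dnmt3b*. The widest were those of *Tet1*, from -0.51 to 0.31, and *Uhrf1*, from -0.22 to 0.62. Fewer cells of a type and less RNA per cell cannot be told apart in RNA of whole muscle, for this and every later result.

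**Figure D1:**
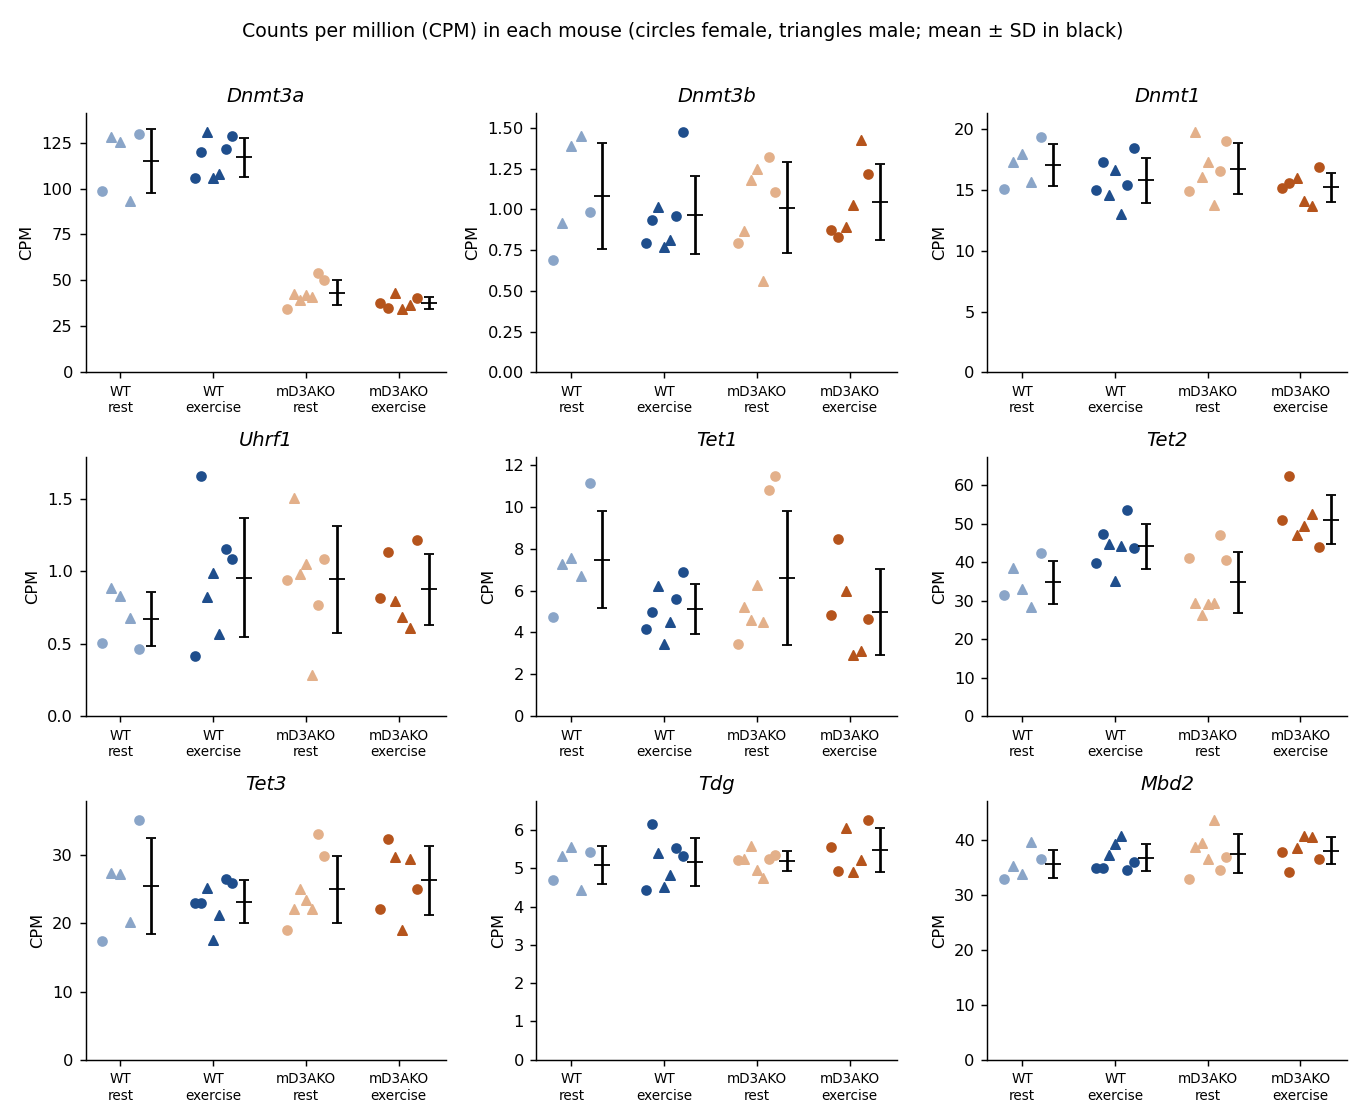
CPM of each of the 9 genes in each of the 25 mice, by genotype and exercise, with every y axis starting at 0; circles are females, triangles are males, and the black marks give the mean ± SD of the group. *Dnmt3a* separates the genotypes, and the exercised groups of *Tet2* (35.2 to 62.3 CPM) lie higher than its rested groups (26.3 to 47.0 CPM).

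Levels of the 9 genes were ordered per kb of summed exon length, and neighbours in the order were compared by whether their ranges over mice overlapped. These ranges show the spread between mice and not the error of comparing different genes by their length. In the 12 WT mice, *Mbd2* was highest with 11.3 ± 0.762 CPM per kb (SD, n = 12), followed by *Dnmt3a* with 6.98 ± 0.796. Their ranges did not overlap, nor did that of *Dnmt3a* with the next gene, *Tet2*. *Tet2* (2.38 ± 0.432), *Dnmt1* (2.21 ± 0.249) and *Tet3* (1.45 ± 0.296) followed, and each of them overlapped with the next gene in the order. *Tdg* had 0.955 ± 0.101 CPM per kb and lay above *Tet1* (0.405 ± 0.137) in every WT mouse.

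At the bottom were *Dnmt3b* with 0.199 ± 0.0533 and *Uhrf1* with 0.196 ± 0.0832 CPM per kb, whose ranges overlapped. These 2 genes rested on few reads, between 8 and 50 for *Dnmt3b* and between 4 and 59 for *Uhrf1* in a library, with both lowest counts in mouse 15. In the 13 mD3AKO mice the order was the same for most genes, but *Dnmt3a* (2.45 ± 0.352) came down to the level of *Tet2* (2.504 ± 0.651) and *Dnmt1* (2.18 ± 0.254), with overlapping ranges. The *Dnmt3a* level, which includes any transcripts without the floxed exon, stayed above that of *Dnmt3b* in every mD3AKO mouse. The values were 2.08 to 3.24 against 0.1096 to 0.279 CPM per kb. The order depends on the scaling by length. In CPM without it, *Dnmt3a*, *Tet2* and *Mbd2* came first in WT and *Tet2*, *Dnmt3a* and *Mbd2* in mD3AKO mice, and *Tet1* stood above *Tdg* in both by their means.

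**Figure D2:**
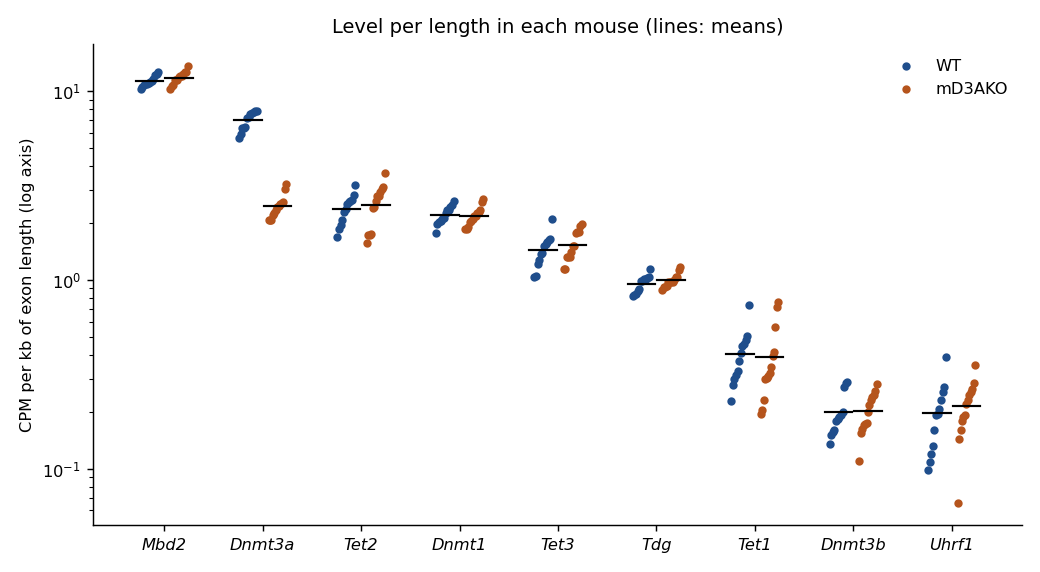
CPM per kb of exon length (log axis) of each gene in each WT (n = 12) and mD3AKO (n = 13) mouse, in the order of the WT means, which are drawn as lines. *Mbd2* and *Dnmt3a* stand above the other genes in WT, and *Dnmt3a* joins *Tet2* and *Dnmt1* in mD3AKO mice.

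Exercise raised a single member, *Tet2*. edgeR's quasi-likelihood test of the main effect of exercise called 10.4% of all tested genes, 5.7% higher and 4.69% lower, so that 1 of 9 members is a share near the background. The median log2 fold change was -0.03 over the 9 members and -0.0009 over all tested genes. By direction, 4 of the 9 were higher and 5 lower, and 2 of them (*Tet2* and *Tet1*) had an unadjusted p under 0.05.

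*Tet2* (ENSMUSG00000040943, chr3:133463679-133545139, reverse strand, 16870 exon bases) had the highest mean level per kb of the Tet genes. At rest, the WT mice had 28.3, 31.5, 32.9, 38.5 and 42.4 CPM. After exercise, the 7 WT mice had 35.2 to 53.7 CPM (median 44.2). The rested mD3AKO mice had 26.3 to 47.0 CPM (median 29.4), and the exercised mD3AKO mice 43.9 to 62.3 CPM (median 50.2). All 13 exercised mice lay above the median of the 12 rested mice, and 7 lay above the highest of them. The groups overlapped, as they did for every other member, while 1.07% of all genes had no overlap between rested and exercised mice.

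The main effect of exercise on *Tet2* was a log2 fold change of 0.45 (SE 0.092, 95% interval 0.26 to 0.64, adjusted p = 0.0014, edgeR), or 1.37-fold. In mD3AKO mice it was 0.55 (SE 0.127, interval 0.29 to 0.81), with an adjusted p of 0.0067 from edgeR, where 6.02% of all genes were called. This call was lost in females alone (0.28, adjusted p = 0.635, edgeR) and with scaling to total counts alone (0.51, adjusted p = 0.124, edgeR). In WT mice it was 0.34 (SE 0.134, interval 0.07 to 0.62) and missed the threshold, with an adjusted p of 0.215 from edgeR, where 3.59% of genes were called. The difference between the genotypes was 0.21 (SE 0.184, interval -0.17 to 0.59) and was not called (adjusted p = 1.00, edgeR), so that these data did not show the *Tet2* responses to differ. Of all genes, 0% were called for this interaction by edgeR or DESeq2, and 403 had an unadjusted p under 0.05 in edgeR.

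With each mouse left out in turn, the main effect on *Tet2* lay between 0.41 and 0.49, and the adjusted p was at most 0.0041 (edgeR). Without mouse 15 it was 0.43 (adjusted p = 0.0018, edgeR). An antisense gene, *Gm42567*, shares 43 exon bases with *Tet2* and had 24 reads in all 25 libraries together, against 419 to 1954 reads of *Tet2* in each.

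The promoter of *Tet2* is shown because the gene called for exercise has many CpG dinucleotides there, the substrate of the TET enzymes once methylated. The 250 bases before its RefSeq start (GRCm38.p6) lie on the reverse strand of chr3:133544391-133544640 and hold 51 CpG, in capitals below. The span of the counted gene begins further upstream, at 133545139, so that this window lies inside it. This is more than in 99.93% of 32851 promoter windows of the same length, whose median was 6 CpG. The methylation of this window was not analysed here.
Tet2 promoter: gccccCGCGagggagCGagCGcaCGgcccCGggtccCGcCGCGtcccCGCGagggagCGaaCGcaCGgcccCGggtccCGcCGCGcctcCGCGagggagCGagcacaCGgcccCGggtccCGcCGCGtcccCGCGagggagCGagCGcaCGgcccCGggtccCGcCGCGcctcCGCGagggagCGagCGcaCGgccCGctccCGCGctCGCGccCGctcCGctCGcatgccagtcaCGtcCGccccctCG

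Promoter windows were found for 8 of the 9 members. The others ranged widely, from 10 and 30 CpG at the 2 starts of *Uhrf1* and 15 CpG for *Tet1* to 17 for *Tet3*, 19 for *Tdg* and 21 for *Dnmt3b*. The 3 starts of *Dnmt1* had 2, 7 and 26 CpG, and those of *Dnmt3a* had 15, 38 and 40. A high CpG count is thus shared with *Dnmt3a*, which was not called for exercise.

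*Tet1* went the other way without passing the threshold. The WT mice at rest had 4.71, 6.70, 7.27, 7.55 and 11.1 CPM, and after exercise 3.43 to 6.91 CPM (median 4.97). The mD3AKO mice had 3.46 to 11.5 CPM (median 5.21) at rest and 2.93 to 8.44 CPM (median 4.74) after exercise. The 3 highest values belonged to rested females, mice 20, 21 and 24, which also held 3 of the 4 highest *Tet3* values. The other rested females, mice 1 and 2, were low, with 4.71 and 3.46 CPM of *Tet1* and 17.4 and 19.1 CPM of *Tet3*. The main effect of exercise on *Tet1* was -0.48 (SE 0.198, interval -0.89 to -0.08), at an adjusted p of 0.134 (edgeR). It passed the threshold only without mouse 6 (-0.59, adjusted p = 0.047, edgeR).

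*Tet3* overlapped between rest and exercise. It had 17.4 to 35.2 CPM in the 12 rested mice (median 24.3) and 17.5 to 32.4 CPM in the 13 exercised mice (median 25.1). Its main effect of exercise was -0.03 (SE 0.109, interval -0.26 to 0.19), and the sign turned when mouse 17, 20 or 21 was left out. Genes on the other strand (*B230319C09Rik*) or within the same span (*5430434F05Rik*) share no exon base with it.

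Seen as shares of the summed level of the 3 Tet genes per kb, *Tet2* made up 46.9% to 58.0% in the WT mice at rest (median 50.3%) and 56.3% to 62.5% after exercise (median 61.9%). In mD3AKO mice the share was 46.3% to 64.0% at rest (median 50.8%) and 56.2% to 68.7% after exercise (median 60.5%). The share of *Tet1* went from a median of 12.3% to 7.20% in WT and from 10.1% to 6.93% in mD3AKO mice. The shares of the 3 genes depend on each other and describe the same values as above.

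Among the writers, *Dnmt1* had 13.8 to 19.8 CPM in the rested mice (median 17.0) and 13.0 to 18.5 CPM in the exercised mice (median 15.5). Its main effect was -0.13 (SE 0.063, interval -0.26 to 0.0008, unadjusted p = 0.051, adjusted p = 0.238, edgeR), with overlapping groups. *Dnmt3a* had a main effect of -0.08 (SE 0.069, interval -0.23 to 0.06). It was 0.02 in WT mice (interval -0.18 to 0.23) and -0.19 in mD3AKO mice (interval -0.39 to 0.0037). The antisense gene *Dnmt3aos*, which shares 133 exon bases with *Dnmt3a*, had at most 11 reads in a library.

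*Dnmt3b* had 0.560 to 1.45 CPM at rest (median 1.04) and 0.769 to 1.47 CPM after exercise (median 0.937). Its main effect was -0.07 (SE 0.149, interval -0.38 to 0.24). *Uhrf1* had 0.280 to 1.51 CPM at rest and 0.416 to 1.66 CPM after exercise, with medians of 0.854 and 0.822 CPM. Its main effect was 0.18 (SE 0.206, interval -0.24 to 0.61) and was not called (adjusted p = 0.701, edgeR). Within WT it was 0.52 (interval -0.10 to 1.14), with -0.010 in males alone and 1.15 in females alone. Only 2 of the WT females were at rest, with 17 reads of *Uhrf1* each. Within mD3AKO mice the effect of exercise on *Uhrf1* was -0.15 (interval -0.73 to 0.43), with -0.54 in males alone and 0.18 in females alone.

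*Tdg* and *Mbd2* had the narrowest intervals of the members. *Tdg* had 4.45 to 5.58 CPM at rest (median 5.24) and 4.43 to 6.27 CPM after exercise (median 5.31), with a main effect of 0.05 (SE 0.062, interval -0.08 to 0.18). *Glt8d2*, on the other strand, shares 367 exon bases with it and had 30 to 156 reads in a library. *Mbd2* had 32.97 to 43.7 CPM at rest (median 36.5) and 34.2 to 40.7 CPM after exercise (median 37.4). Its main effect was 0.03 (SE 0.045, interval -0.06 to 0.13).

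**Figure D3:**
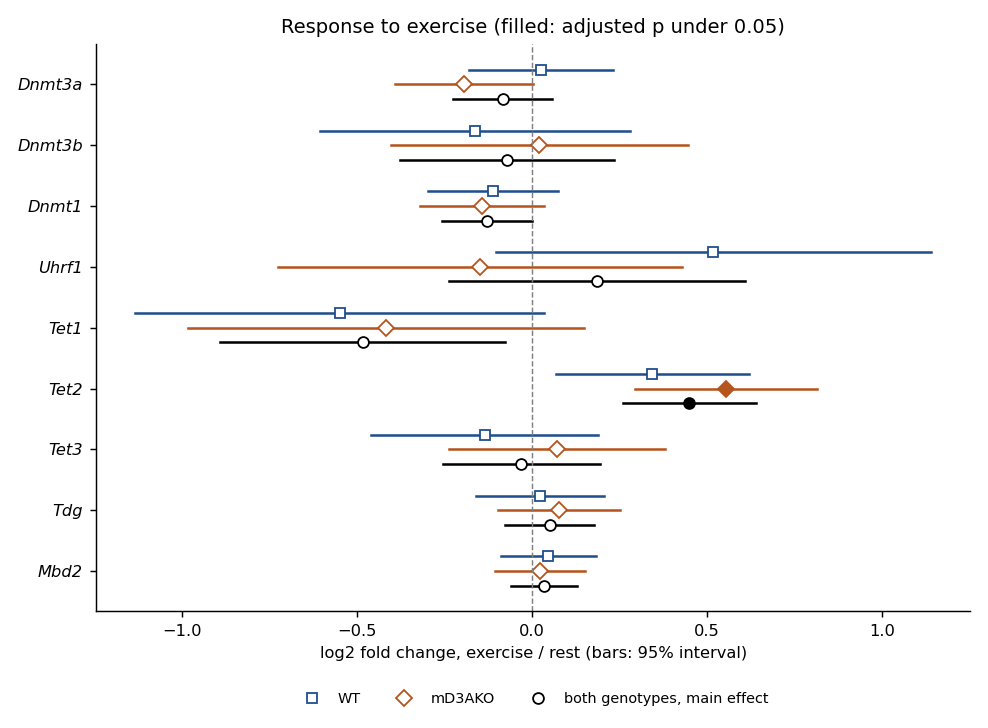
Log2 fold change of exercise against rest with its 95% interval for each gene, in WT mice (squares), in mD3AKO mice (diamonds) and as the main effect over both genotypes (circles); filled symbols passed an adjusted p of 0.05. *Tet2* is filled for the main effect (0.45) and in mD3AKO mice (0.55), and the interval of *Tet1* (-0.89 to -0.08) lies on the other side of 0 without passing the adjustment.

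Sex was then set beside exercise, because both sexes were present in each group. In a fit with 8 groups of sex, genotype and exercise, 8.15% of 17389 genes were called between the sexes by edgeR, 5.36% higher and 2.79% lower in males. Of the members, *Mbd2* was higher in males and *Tet2* lower. *Mbd2* had 33.9 to 43.7 CPM in males (median 39.3) and 32.97 to 37.95 CPM in females (median 34.9), and 9 of 13 males lay above every female. The log2 difference was 0.15 (SE 0.038, adjusted p = 0.015, edgeR). It was 0.02 (adjusted p = 0.846, edgeR) with scaling to total counts alone, which moved the median of all genes to -0.12, and it missed the threshold without a filter (adjusted p = 0.0917, edgeR) and without mouse 14 (0.12, adjusted p = 0.054, edgeR).

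*Tet2* had 26.3 to 52.5 CPM in males (median 35.2) and 31.5 to 62.3 CPM in females (median 43.8). Its log2 difference of male and female mice was -0.23 (SE 0.069, adjusted p = 0.040, edgeR). With scaling to total counts alone it was -0.35 (adjusted p = 0.034, edgeR). The call was lost when mouse 6, 10, 14, 16, 17, 20 or 21 was left out, and was weakest without mouse 20 (-0.18, adjusted p = 0.181, edgeR). *Tet1* was lower in males by 0.40 (SE 0.185), with an adjusted p of 0.201 from edgeR. The 6 remaining members had adjusted p-values of 0.580 to 0.934 (edgeR).

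With each sex taken alone, *Tet2* was called for exercise in males and not in females. The 7 rested males had 26.3 to 38.5 CPM and the 6 exercised males 35.2 to 52.5 CPM, of which 5 lay above every rested male. Among mD3AKO males the groups did not overlap, with 26.3, 29.1, 29.3 and 29.4 CPM at rest and 47.1, 49.5 and 52.5 CPM after exercise, as was the case for 12.5% of all tested genes in this split of 4 and 3 mice. WT males overlapped, with 28.3 to 38.5 CPM at rest and 35.2 to 44.6 CPM after exercise. The 5 rested females had 31.5 to 47.0 CPM and the 7 exercised females 39.8 to 62.3 CPM, of which 4 lay above every rested female.

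The main effect in males alone was 0.55 (SE 0.080, interval 0.38 to 0.72, adjusted p = 0.0008, edgeR). It was 0.79 in mD3AKO males (SE 0.108, adjusted p = 0.0007, edgeR) and 0.31 in WT males (SE 0.116, adjusted p = 0.353, edgeR), which was not called. In females alone it was 0.30 (SE 0.108, interval 0.06 to 0.53, adjusted p = 0.241, edgeR), with 0.28 in mD3AKO and 0.32 in WT females, of which only 2 were at rest. The test of the difference itself gave 0.25 (SE 0.138, interval -0.04 to 0.53, unadjusted p = 0.087, adjusted p = 1.00, edgeR), so that the sexes were not shown to differ. This fit called 0.046% of all genes for such a difference and 0 of the members. *Uhrf1* had the lowest unadjusted p of the members there, 0.029, with a difference of -0.94 (SE 0.402, adjusted p = 1.00, edgeR).

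**Figure D4:**
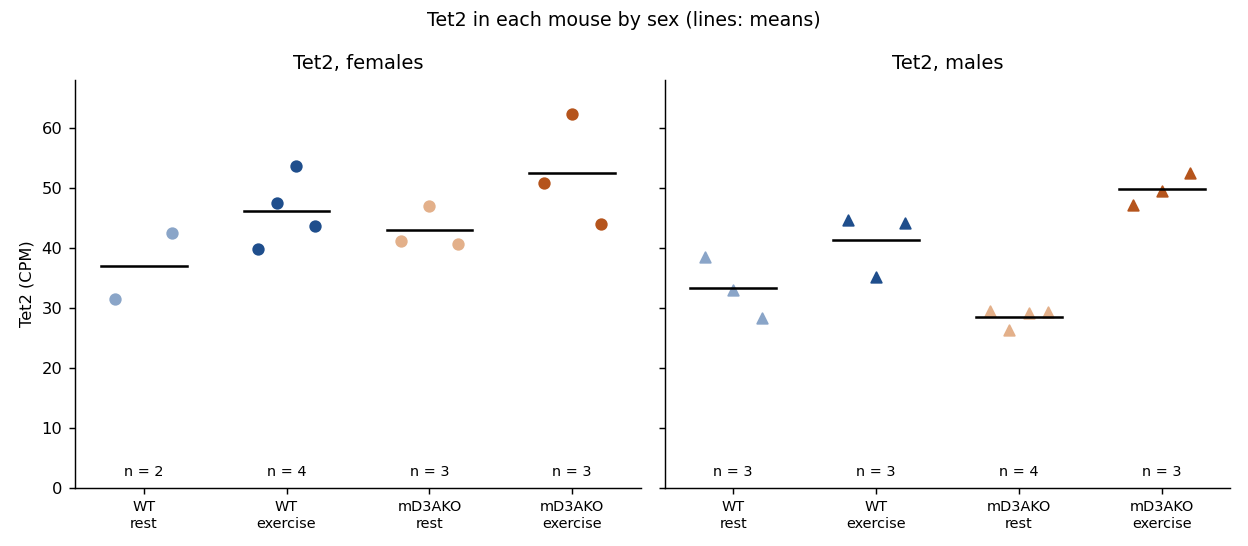
*Tet2* in CPM in each mouse, females on the left and males on the right, by genotype and exercise; black lines are means. Rested mD3AKO males (26.3 to 29.4 CPM) and exercised mD3AKO males (47.1 to 52.5 CPM) are apart, as for 12.5% of all tested genes, while WT males (28.3 to 38.5 and 35.2 to 44.6 CPM) as well as rested and exercised mD3AKO females (40.7 to 47.0 and 43.9 to 62.3 CPM) overlap.

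The wider machinery was described from 69 further genes in 7 lists, of which 62 passed the filter. With 4 higher and 3 lower after exercise and a median log2 fold change of 0.0096, their calls stood near the background given above. None of the 62 was called for genotype. The responses to exercise given below are main effects unless a genotype is named, and 0% of all genes were called for the interaction. The lists of H3K36 methyltransferases, whose mark recruits DNMT3A and DNMT3B, and of other methyl-CpG readers had no called gene among 4 and 9. The genes with the highest mean CPM in these lists, *Nsd1* and *Zbtb38*, had log2 fold changes of 0.08 (SE 0.038) and 0.02 (SE 0.057).

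Of the 10 TET partners and genes of cofactor supply, 2 fell, where 4.69% of all tested genes were called lower. *Cxxc4* and *Cxxc5* code for CXXC zinc finger proteins that bind CpG and TET2. *Cxxc5* had 11.9 to 17.3 CPM at rest and 6.62 to 13.2 CPM after exercise, and 12 of 13 exercised mice lay below every rested mouse. It fell by 0.63 on the log2 scale (SE 0.092, adjusted p = 2.07e-05, edgeR). *Cxxc4*, which lies 691344 bases from *Tet2* on chromosome 3, had 0.976 to 1.99 CPM at rest and 0.407 to 1.24 CPM after exercise. It also fell by 0.63 (SE 0.138, adjusted p = 0.0024, edgeR), on far fewer reads. In females alone neither call held (-0.52 with an adjusted p of 0.067 for *Cxxc5* and -0.65 with 0.0746 for *Cxxc4*, edgeR). *Cxxc5* was called within each genotype. *Cxxc4* was called in WT mice (-0.87, adjusted p = 0.0096, edgeR) and not in mD3AKO mice (-0.40, adjusted p = 0.274, edgeR). *Idh2*, the gene of the list with the highest mean CPM and a source of the TET cofactor 2-oxoglutarate, had a log2 fold change of 0.04 (SE 0.096).

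Among GADD45 and ING adaptors, which have been linked to demethylation through repair, *Gadd45g* rose and the 3 others were not called. It had 4.46 to 25.5 CPM at rest (median 9.87) and 15.9 to 45.4 CPM after exercise (median 30.5), and 10 of 13 exercised mice lay above every rested mouse. Its log2 fold change was 1.33 (SE 0.225, adjusted p = 0.00015, edgeR), the largest in size of the 62 genes. It was called in mD3AKO mice (1.69, adjusted p = 0.00069, edgeR) and not in WT mice (0.96, adjusted p = 0.118, edgeR). Of 13 genes of deamination and base excision repair, *Apobec1*, an RNA and DNA cytidine deaminase, fell by 0.53 (SE 0.134, adjusted p = 0.0082, edgeR), from a median of 3.53 to 2.31 CPM. In males alone it was not called (-0.45, adjusted p = 0.292, edgeR). *Apobec1* was called in mD3AKO mice (-0.69, adjusted p = 0.026, edgeR) and not in WT mice (-0.38, adjusted p = 0.441, edgeR). *Apobec2*, a muscle member of the same family and the highest of the list in mean CPM, had a log2 fold change of -0.15 (SE 0.068) and was not called.

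In the methyl donor cycle, *Mat2a*, the enzyme that makes the methyl donor S-adenosylmethionine outside the liver, was the only called gene of 14 and the highest in mean CPM. It had 67.95 to 103.9 CPM at rest (median 76.1) and 81.9 to 133.1 CPM after exercise (median 102.3), a log2 fold change of 0.36 (SE 0.062, adjusted p = 0.00021, edgeR). It was called in mD3AKO mice (0.52, adjusted p = 0.00019, edgeR) and not in WT mice (0.19, adjusted p = 0.380, edgeR). Of 8 tested other writers and partners, 2 rose, where 5.7% of all tested genes were called higher. *Uhrf2*, the relative of *Uhrf1*, rose by 0.17 (SE 0.046, adjusted p = 0.016, edgeR) and *Pcna*, the replication clamp that binds DNMT1, by 0.15 (SE 0.044, adjusted p = 0.023, edgeR). With scaling to total counts alone neither was called (adjusted p of 0.503 for *Uhrf2* and 0.321 for *Pcna*, edgeR), nor in either sex alone or within either genotype. The call of *Pcna* was also lost without a filter (adjusted p = 0.0969, edgeR), without mouse 11 (adjusted p = 0.051) or mouse 20 (adjusted p = 0.056, edgeR). *Usp7*, the highest in mean CPM, had 0.03 (SE 0.030). The 12 tested proliferation markers had no call, with *Mcm7* the highest in mean CPM (-0.08, SE 0.083) and *Mki67* the largest in size (-0.59, SE 0.427).

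**Figure D5:**
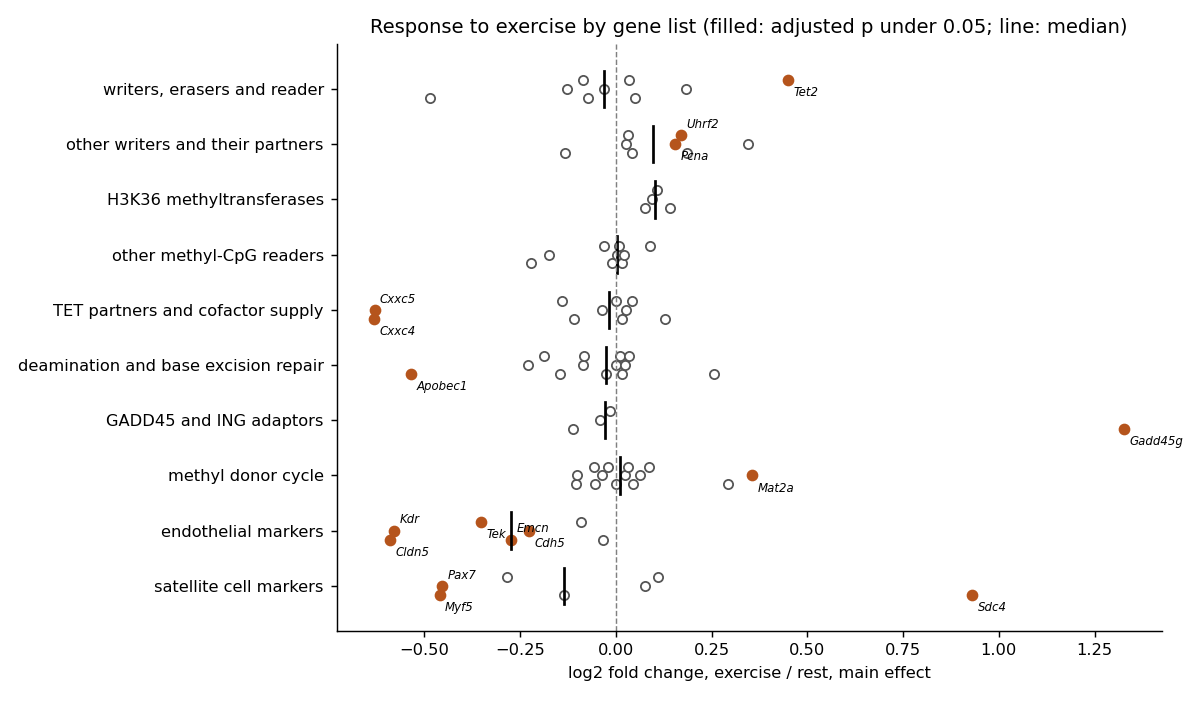
Log2 fold change of exercise against rest (main effect) of each tested gene, by list; filled points passed an adjusted p of 0.05 and are named, and black lines are the medians of the lists. Of the cell marker lists, only those of endothelial and satellite cells are drawn. Among the genes drawn, *Gadd45g* (1.33) stands highest, *Cxxc4* and *Cxxc5* (both -0.63) lie at the low end, and 5 of 7 endothelial markers are called lower.

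Markers of other cells of the tissue moved with exercise as well. Of 7 endothelial markers, 5 were lower (*Cdh5*, *Kdr*, *Tek*, *Emcn* and *Cldn5*, the last by 0.59, SE 0.135), where 4.69% of all tested genes were called lower, and their summed level was 381 to 520 CPM at rest and 326 to 431 CPM after exercise. *Pecam1*, the highest in mean CPM, had -0.09 (SE 0.052). Of 7 satellite cell markers, *Pax7* and *Myf5* were lower (-0.45 and -0.46) and *Sdc4* higher (0.93, SE 0.083), where 10.4% of all tested genes were called in either direction. The median of the list was -0.13, while its summed level was 91.5 to 133 CPM at rest and 120 to 194 CPM after exercise. *Sdc4*, the highest in mean CPM, alone had 52.8 to 87.1 CPM at rest and 83.1 to 156 CPM after exercise. *Pax7* was also higher in mD3AKO than in WT mice (0.48, adjusted p = 0.038, edgeR), where 0.269% of all tested genes were called. It was the only 1 of the 7 markers called for genotype, and the median of the list for genotype was -0.0023.

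Of 7 tested immune cell markers, *S100a9* was lower (-1.28, SE 0.406), where 4.69% of all tested genes were called lower, and the summed level was 29.6 to 93.9 CPM at rest and 18.2 to 91.9 CPM after exercise. *Csf1r*, the highest in mean CPM, had -0.21 (SE 0.186). *Cd3e*, *S100a8* and *S100a9* were at 0 in some libraries. The lists of muscle fiber, fibroblast, adipocyte, Schwann cell and blood markers had no called gene. All 7 fibroblast markers nevertheless had values below 0, with a median of -0.37, against -0.27 for the endothelial list. Of these, *Pdgfra* had -0.39 (SE 0.130, adjusted p = 0.0549, edgeR) and *Lum* -0.39 (SE 0.153, adjusted p = 0.116, edgeR). The largest values in size of the 5 lists were 0.24 for *Ttn* (SE 0.146), -0.44 for *Col3a1* (SE 0.297), 0.72 for *Cidec* (SE 0.372), 0.20 for *Mbp* (SE 0.457) and -0.20 for *Alas2* (SE 0.266), and the genes with the highest mean CPM of the last 3 lists had 0.04 (*Fabp4*), 0.20 (*Pmp22*) and -0.115 (*Hbb-bs*). The part of these markers in the *Tet2* result was not tested.

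The genes whose log2 CPM followed *Tet2* most closely over the 25 libraries were *Zfp236*, a zinc finger gene (Pearson's r 0.855, Spearman's rho 0.835), *Slc7a6*, an amino acid transporter (0.839 and 0.831), and *Catsper4*, a sperm channel subunit (0.838 and 0.855). They were picked as the highest of all tested genes, so the values are a description, and the 25 points share the groups and the scaling. *Zfp236* had 24.5 CPM on average, *Slc7a6* 10.9 CPM and *Catsper4* 0.515 CPM. Their log2 fold changes of exercise were 0.23, 0.49 and 1.48, all called by edgeR.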

How the data were processed

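Per the labels and the study's methods, total RNA was depleted of ribosomal RNA, made into strand-specific libraries and read as 75-bp paired ends. The submitters' processing notes name FastQC 0.11.5, STAR 2.5.3a, featureCounts 1.5.3 and mm10, and whether counting used the strand is not given in the sources used here. The authors deposited raw counts per gene on GENCODE gene models, without normalization. From these, genes were kept with filterByExpr (4 groups, minimum count 10, minimum total 15), scaled by TMM and tested with edgeR 4.0.16 (quasi-likelihood, 1 mean per group, limma 3.58.1, R 4.3.3). P-values were Benjamini-Hochberg adjusted over all tested genes, with calls under 0.05. SEs were derived from the F statistic, and intervals are 95%. CPM used TMM library sizes, and log2 CPM a prior count of 2. For sex, the fit had 8 groups. Sequences and promoters were read from GENCODE M21 transcripts and RefSeq. The pipeline was tested on simulated data.

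The genes, lists and tests were chosen with earlier results of these data known. Named are all members and, of each machinery list, the called genes and the gene of highest mean CPM. Of each marker and proliferation list, called genes, the largest change and the highest mean CPM are named. Further marker genes named are *Pdgfra*, *Lum*, *Cd3e* and *S100a8*. Some genes that overlap a member or share words with it are also named. The 3 genes most correlated with a member called for exercise complete the list. Alternatives were RLE or total-count scaling, DESeq2 1.42.0, no filter, a mean of at least 1 CPM, sex or runs of mouse numbers (1 to 6, 7 to 19, 20 to 25; the middle run holds all males and the others only females, so that this term contains sex) as a term, each sex alone, and each mouse left out.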

Additional observations from a re-analysis of the deposited data

Results flagged for a closer look

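In the exercised WT mice, *Dnmt3b* of mouse 25, a female, lay apart from the other 6. It had 1.47 CPM, against 1.01 CPM in the next highest and 0.769 CPM in the lowest mouse, and the gap to its neighbour was 0.653 of the range, above Dixon's 95% critical value of 0.568 for 7 samples. Of 36 such group and gene combinations this was the only one, and chance flags about 1 in 20.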

How the results depend on the processing

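*Tet2* kept its rise with exercise in 34 alternatives, between 0.30 and 0.55, and was called in 33 of them (adjusted p at most 0.038); in females alone it was 0.30 (adjusted p = 0.241, edgeR). *Dnmt3a* stayed lower in mD3AKO mice in all of them, between -1.55 and -1.49 with each mouse left out. No paired analysis was possible because the mouse numbers are unique, so that the groups share none. Genes near 1 CPM (*Dnmt3b*, *Uhrf1*, *Cxxc4*) rest on few reads, and counting error and spread between mice were not separated for them. Where a value moved, the cause was not tested.

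The number of called genes moved as follows. For exercise, the main effect called 1699 genes and 927 with scaling to total counts alone, 966 in males alone and 512 in females alone. In WT mice it called 587, and 293, 207 and 186 under the same settings, and in mD3AKO mice 984, and 484, 630 and 184. The main effect of genotype called 44 genes, and 29 with total counts, 81 with DESeq2, 72 with sex as a term, 97 with runs of mouse numbers as a term, 23 in males alone and 6 in females alone. At rest it called 15 (23 with DESeq2, 4 in males alone and 4 in females alone) and after exercise 18 (28, 6 and 5). Between the sexes, 1418 genes were called, 748 with total counts and 834 to 1740 with each mouse left out, the lowest without mouse 20. The difference of the sexes in their response called 8 genes, 3 with total counts, 20 with DESeq2, 23 without a filter and 3 to 17 with each mouse left out, the lowest without mouse 2 or 6 and the highest without mouse 23.

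Signs that turned, given here for the main effects and interaction and for some effects within a group, belonged to effects that were not called. For the main effect of exercise these were *Dnmt3b* in females alone (0.086), *Uhrf1* and *Tdg* in males alone (-0.28 and -0.0015), and *Tet3* with runs of mouse numbers (0.0041) and between -0.087 and 0.043 with each mouse left out. Within a genotype, the effect of exercise turned in males alone for *Uhrf1* (-0.010), *Dnmt3a* (-0.020) and *Tdg* (-0.065) in WT, and in females alone for *Dnmt3b* in WT (0.31) and for *Dnmt3b* (-0.14), *Uhrf1* (0.18) and *Tet3* (-0.049) in mD3AKO mice. In mD3AKO mice it also turned for *Dnmt3b* with total counts (-0.037) and without mouse 15 (-0.047). The sex effect turned for *Dnmt3b* with total counts (-0.0085) and for *Uhrf1* without mouse 15 (0.0084). For the main effect of genotype these were *Dnmt3b* with total counts (-0.0064) and between -0.046 and 0.082 with each mouse left out, and *Tet1* in females alone (0.12). The interaction turned for *Dnmt1* with runs of mouse numbers (0.00038) and, in females alone, for *Dnmt3b* (-0.46), *Tet2* (-0.031) and *Mbd2* (0.046). With each mouse left out it ranged from -0.081 to 0.012 for *Dnmt1*, from -0.08 to 0.32 for *Tet1* and from -0.065 to 0.026 for *Mbd2*.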
